A study of Mus musculus with 9 samples.

Results

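The genes described here are 10 genes whose transcripts are known to mark reactive astrocytes: Gfap, Vim, Serpina3n, Lcn2, Aqp4, Cd44, Steap4, Osmr, S1pr3 and Timp1. They were chosen by name as markers of that state, with earlier results of these data known. All 10 were found among the 47643 genes of the count matrix. RNA of the hippocampus was sequenced in 9 libraries, 3 in each of 3 groups, at postnatal week 6. The MRL/mpj group carries the wild type allele of Fas and was untreated, the MRL/lpr group carries the lpr allele and was untreated, and the MRL/lpr+MSC group carries the lpr allele and was given mesenchymal stem cells. The labels name C57BL/6 as the strain of every library, whereas the study describes MRL/MpJ mice and MRL/MpJ-Faslpr mice, and the names of the study are used here. The dose and timing of the stem cells are not given with the data, and no MRL/lpr group given a vehicle was sequenced, so the cells and the procedure of giving them cannot be told apart. MRL/lpr mice carry an insertion in Fas in every cell, so that differences in the brain cannot be assigned to a cell type that lost the receptor.

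Astrocytes answer injury, infection and inflammation in the brain by enlarging their processes and switching on a shared set of genes, a state called reactive. The set includes the intermediate filaments of the cytoskeleton, secreted acute-phase proteins, and receptors through which cytokines and matrix molecules act on the cell. Cytokines of the interleukin-6 family, among them oncostatin M, drive much of it through the receptor subunit gp130 and the transcription factor STAT3, and several of these genes are also active in ependyma, vessel walls, meninges or leukocytes.

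Before the groups were compared, the labels were checked. In a table of the study that lists normalised values per mouse, the first 1999 genes were read. Of these, 1974 to 1984 genes per matching column were compared with the counts. The columns headed MRL/mpj were multiples by 1 factor of the libraries labelled MRL/mpj in 100% of the genes, within a tolerance of 0.5%. The columns headed MRL/lpr matched the libraries labelled MRL/lpr+MSC in the same way, in 100% of the genes, and any other pairing reached at most 3.20%. The deposited labels were kept. If the labels of the MRL/lpr and MRL/lpr+MSC libraries were exchanged, the comparisons of these groups with MRL/mpj mice would trade places and the comparison between them would change sign. Fas itself (ENSMUSG00000024778, chromosome 19, 34290666 to 34327772), the death receptor disrupted by the lpr insertion, had a mean level of 1.82 ± 0.186 CPM (SD, n = 3) in MRL/mpj mice, where CPM are counts scaled to library size after normalisation. Its mean level was 1.79 ± 0.482 CPM (SD, n = 3) with MRL/lpr and 1.31 ± 0.445 CPM (SD, n = 3) with MRL/lpr+MSC. The groups overlapped, so the whole-gene count of Fas did not check the labels.

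The total count per library lay between 19475804 and 24114666 for MRL/mpj, between 22438063 and 26912031 for MRL/lpr and between 20014975 and 21914100 for MRL/lpr+MSC. Where a gene has 0 counts, up to 3 counts remain possible, which equals 0.105 to 0.163 CPM after normalisation and covers counting error only. Markers of astrocytes of any state were present in every library. The 16 astrocyte identity genes summed to 9486, 8881 and 8932 CPM in MRL/mpj mice, to 9426, 7595 and 10353 CPM in MRL/lpr mice and to 9801, 9813 and 9939.8 CPM in MRL/lpr+MSC mice. None of the 16 was at 0 in any of the 9 libraries, and Slc1a2, the glutamate transporter of astrocytes, was the most abundant.

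Per length of transcript, the 10 genes covered a wide range of levels. In FPKM, which divides the count by gene length and library size, Gfap had the highest mean level over the 9 libraries, 125 (101 to 176). Serpina3n with a mean level of 50.5 FPKM (36.3 to 71.9) and Aqp4 with 39.4 FPKM (32.5 to 51.2) came next, and their ranges overlapped. Vim had a mean level of 15.5 FPKM (9.24 to 30.9) and S1pr3 one of 3.54 FPKM (2.15 to 6.68). The 5 others had mean levels below 1 FPKM and overlapping ranges, which left their order unresolved, and the highest Steap4 library reached into the range of S1pr3. These were Timp1 with 0.706 FPKM (0.414 to 1.10), Steap4 with 0.695 FPKM (0.0497 to 4.05), Osmr with 0.573 FPKM (0.458 to 0.813), Cd44 with 0.570 FPKM (0.235 to 1.12) and Lcn2 with 0.397 FPKM (0.0399 to 1.44). By the ratio of their highest to their lowest library, Steap4 and Lcn2 varied most, and Gfap and Aqp4 least.

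**Figure D1:**
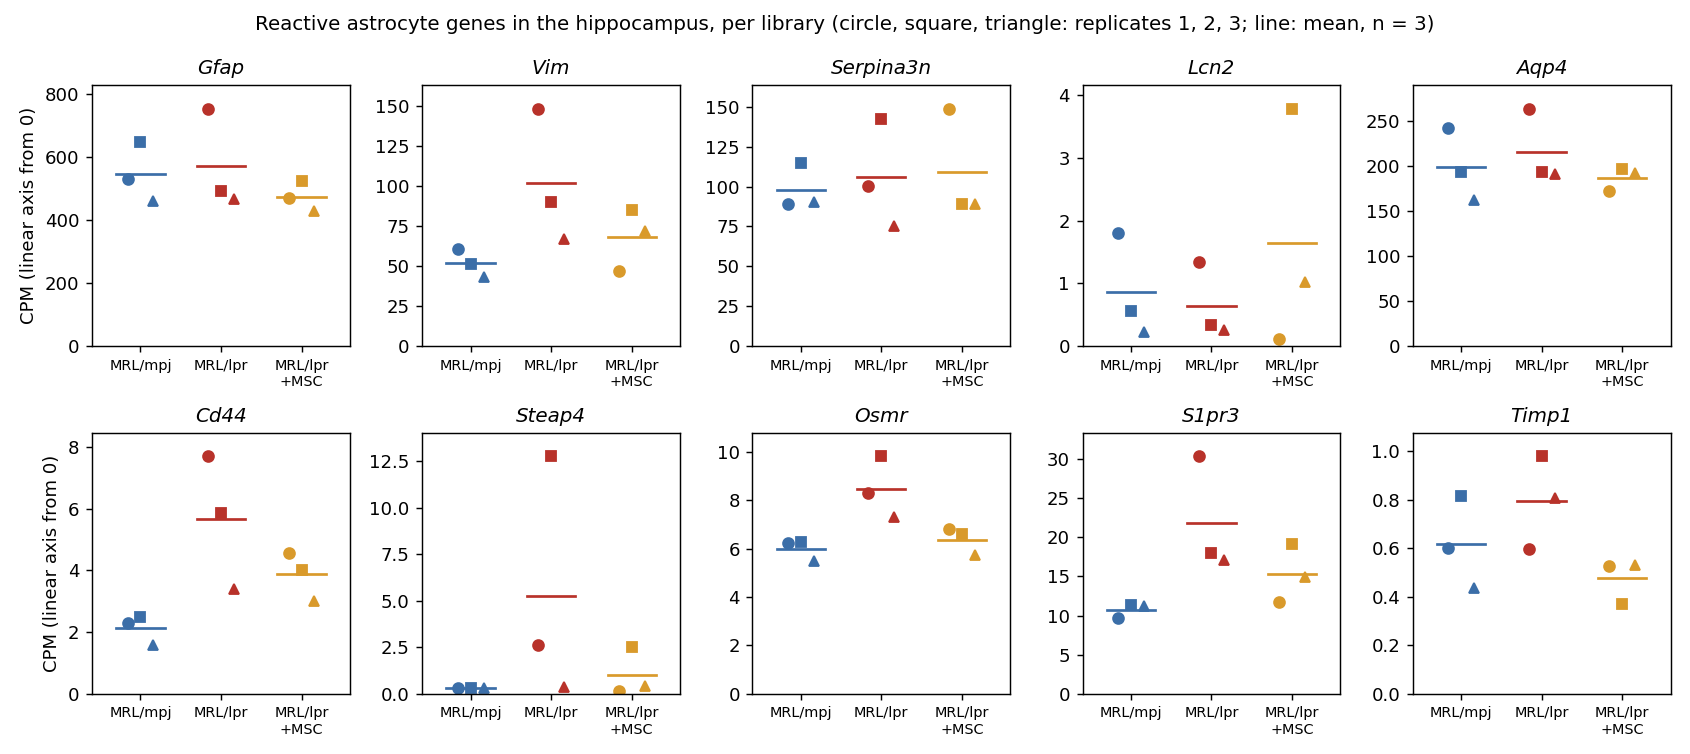
Level of each of the 10 genes in each library in CPM on linear axes that start at 0, with circles, squares and triangles for replicates 1, 2 and 3 and a line at the mean of each group (n = 3). Gfap overlaps between the 3 groups, whereas Cd44 and S1pr3 lie above the MRL/mpj libraries in all 3 MRL/lpr libraries, and Steap4 is high in a few libraries only.

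The first comparison, MRL/lpr against MRL/mpj mice, addresses what differs with the lpr genotype. The most abundant markers, Gfap, Aqp4 and Serpina3n, had overlapping levels in the 2 groups. Vim, Cd44, Osmr and S1pr3 were higher in all 3 MRL/lpr libraries than in any MRL/mpj library, and of the 9 members that passed the filter on low counts Cd44 had the largest fitted difference, a log2 fold change of 1.38 (SE 0.39, n = 3 per group). By limma voom, with p-values adjusted across every tested gene by Benjamini-Hochberg, 0 of the 9 tested members were called, against 5.74% of all genes tested (959 of 16697), where a call requires a 1.5-fold change or more besides an adjusted p below 0.05. At an unadjusted p under 0.05 stood 4 of the 9, against 30.1% of all genes, and limma-trend called 2, Cd44 and S1pr3, among 1338 of all 16697 genes. The 4 tested members whose groups did not overlap, all higher, stand against 19.3% of all genes, and the 0 members lower without overlap against 18.8%. The median log2 fold change of the 9 was 0.34, against 0.03 over all genes tested, and 8 of the 9 were positive, against 54.1% of all genes. In bulk samples, fewer cells of a type and less RNA per cell cannot be told apart. The number of genes called depended on every single library, with 242, 235 and 162 genes without MRL/mpj replicates 1, 2 and 3, and 410, 1692 and 1503 genes without MRL/lpr replicates 1, 2 and 3. The number of members called was 1 without MRL/lpr replicate 2, 3 without MRL/lpr replicate 3 and 0 without any of the other 4 libraries.

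Among the filament genes, Gfap (ENSMUSG00000020932, chromosome 11, 102887336 to 102900912, GRCm38 as for all positions) encodes the main intermediate filament of astrocytes. It had 528, 646 and 458 CPM in MRL/mpj mice and 752, 491 and 467 CPM in MRL/lpr mice. MRL/lpr replicate 1 stood above all others, and the other 2 MRL/lpr libraries lay inside the MRL/mpj range. The log2 fold change of Gfap was 0.06 (95% interval -0.45 to 0.56; limma voom, Benjamini-Hochberg adjusted p = 0.875), and it turned to -0.16 without MRL/lpr replicate 1 and to -0.06 without MRL/mpj replicate 3. Vim (ENSMUSG00000026728, chromosome 2, 13573927 to 13582826) encodes vimentin, the filament that reactive astrocytes assemble together with Gfap. It had 60.6, 51.4 and 43.2 CPM in MRL/mpj mice, a mean of 51.7 ± 8.69 (SD, n = 3), and 148, 89.7 and 66.6 CPM in MRL/lpr mice, a mean of 102 ± 42.1 (SD, n = 3). All 3 MRL/lpr libraries were above all 3 MRL/mpj libraries, with MRL/lpr replicate 1 far above the rest. The log2 fold change of Vim was 0.92 (SE 0.30, 95% interval 0.20 to 1.63), which missed the threshold (limma voom, Benjamini-Hochberg adjusted p = 0.0987). Vim was called without MRL/lpr replicate 3, where the log2 fold change was 1.18 and the adjusted p (limma voom, Benjamini-Hochberg) was 0.0370, and with library quality weights, at 0.0241, within a range of 0.0241 to 0.264 over the 12 alternatives.

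Aqp4 (ENSMUSG00000024411, chromosome 18, 15389496 to 15410982), the water channel of astrocyte endfeet on vessels, had 242, 193 and 163 CPM in MRL/mpj mice and 264, 193 and 191 CPM in MRL/lpr mice. Replicate 1 was the highest library in both groups, and the groups overlapped. The fitted difference was a log2 fold change of 0.13 (95% interval -0.30 to 0.56; limma voom, Benjamini-Hochberg adjusted p = 0.663), and it was -0.03 without MRL/lpr replicate 1 and -0.01 without MRL/mpj replicate 3.

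All 3 receptors of the set were higher without overlap. Cd44 (ENSMUSG00000005087, chromosome 2, 102811141 to 102901665) encodes the receptor for hyaluronan, a sugar polymer of the extracellular matrix. It had 2.30, 2.49 and 1.57 CPM in MRL/mpj mice and 7.69, 5.87 and 3.40 CPM in MRL/lpr mice. The lowest MRL/lpr library exceeded the highest MRL/mpj library. A log2 fold change of 1.38 (SE 0.39, 95% interval 0.44 to 2.31) did not pass the test at an adjusted p of 0.0727 (limma voom, Benjamini-Hochberg). Without MRL/lpr replicate 3, Cd44 was called with a log2 fold change of 1.69 and an adjusted p of 0.0121 (limma voom, Benjamini-Hochberg), and with library quality weights at 0.0191, in a range of 0.0121 to 0.223 over the 12 alternatives. S1pr3 (ENSMUSG00000067586, chromosome 13, 51408639 to 51422797) encodes a G protein-coupled receptor for the lipid sphingosine 1-phosphate. It had 9.64, 11.4 and 11.2 CPM in MRL/mpj mice, a mean of 10.8 ± 0.969 (SD, n = 3), and 30.3, 18.0 and 17.1 CPM in MRL/lpr mice, a mean of 21.8 ± 7.39 (SD, n = 3). The MRL/mpj libraries lay close together, and all 3 MRL/lpr libraries were above them. With a log2 fold change of 1.01 (SE 0.27, 95% interval 0.35 to 1.66), S1pr3 had the lowest adjusted p of the members, 0.0662 (limma voom, Benjamini-Hochberg). S1pr3 was called at an adjusted p (limma voom, Benjamini-Hochberg) of 0.0499 without MRL/lpr replicate 2 and of 0.0412 without MRL/lpr replicate 3, and with library quality weights at 0.0163, with a range of 0.0163 to 0.198 over the 12 alternatives.

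Osmr (ENSMUSG00000022146, chromosome 15, 6813577 to 6874969) encodes the receptor subunit that binds oncostatin M together with gp130. It had 6.24, 6.30 and 5.48 CPM in MRL/mpj mice and 8.32, 9.82 and 7.30 CPM in MRL/lpr mice. These 2 groups did not overlap, but the difference was small, a log2 fold change of 0.49 (SE 0.16, 95% interval 0.11 to 0.88; limma voom, Benjamini-Hochberg adjusted p = 0.0988). It was called in 0 of the 12 alternatives, which include a run of limma-trend, and its unadjusted p was 0.0194. Its adjusted p (limma voom, Benjamini-Hochberg) ran from 0.0469, with library quality weights and a change below 1.5-fold, to 0.275 over the 12 alternatives.

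Of the 3 secreted proteins, Serpina3n (ENSMUSG00000021091, chromosome 12, 104406729 to 104414329), an inhibitor of serine proteases, had 89.3, 115 and 90.1 CPM in MRL/mpj mice and 100.2, 142 and 75.3 CPM in MRL/lpr mice. The MRL/lpr libraries spread to both sides of the MRL/mpj libraries. The difference was near 0, a log2 fold change of 0.08 (limma voom, Benjamini-Hochberg adjusted p = 0.840) that turned to -0.16 without MRL/lpr replicate 2. Serpina3n belongs to a cluster of similar genes, so that reads shared with its neighbours were possible and were not tested. Lcn2 (ENSMUSG00000026822, chromosome 2, 32384633 to 32388252) encodes lipocalin-2, which binds the iron carriers of bacteria. It had 36, 13 and 4 counts in MRL/mpj mice and 38, 8 and 6 counts in MRL/lpr mice, or 1.80, 0.557 and 0.217 CPM and 1.33, 0.340 and 0.255 CPM. In both of these groups replicate 1 was the highest, and the 95% interval of the log2 fold change of -0.26, from -2.39 to 1.86, left both directions possible. Leaving out MRL/mpj replicate 1 made it 0.47, and leaving out MRL/lpr replicate 3 made it 0.20. Timp1 (ENSMUSG00000001131, chromosome X, 20870166 to 20874735), an inhibitor of matrix metalloproteinases, had 12, 19 and 8 counts in MRL/mpj mice and 17, 23 and 19 counts in MRL/lpr mice. In CPM these were 0.599, 0.814 and 0.434 against 0.597, 0.978 and 0.806, and the groups overlapped. Timp1 lies inside Syn1 on the opposite strand, a neuronal gene with a mean level of 394 CPM, and since it is not stated whether reads were counted by strand, its few counts are uncertain.

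Steap4 (ENSMUSG00000012428, chromosome 5, 7960457 to 7982213) encodes a metalloreductase that reduces iron and copper. It had 6, 7 and 6 counts in MRL/mpj mice and 75, 300 and 8 counts in MRL/lpr mice. The MRL/mpj libraries were alike, with a mean of 0.308 ± 0.0148 CPM (SD, n = 3), while the MRL/lpr libraries ran from 0.340 through 2.63 to 12.8 CPM. Although the groups did not overlap, the lowest MRL/lpr library was hardly above the controls, and Steap4 failed the filter on low counts and was not tested in this comparison. Fitted without that filter, it had a log2 fold change of 2.81 and an adjusted p of 0.499 (limma voom, Benjamini-Hochberg).

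**Figure D2:**
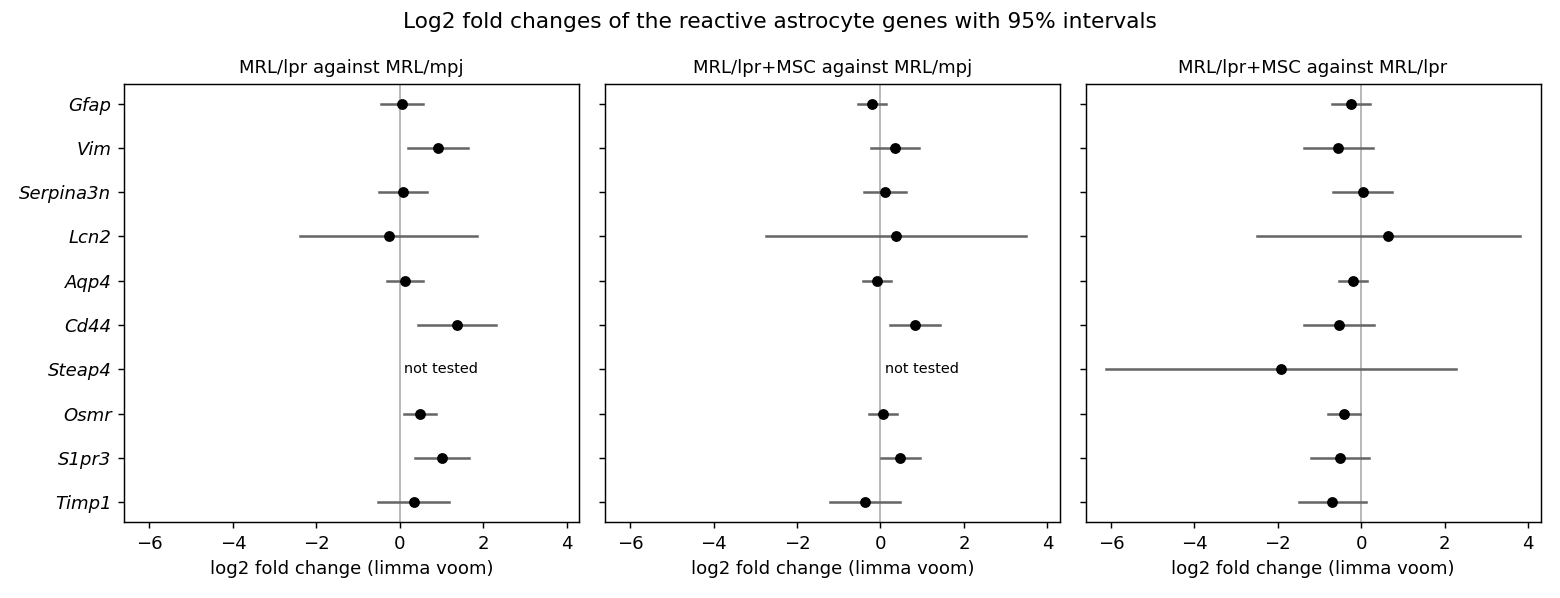
Fitted log2 fold change of each tested gene in the 3 comparisons, on 1 shared axis, with bars for the 95% interval from limma voom (n = 3 per group). With MRL/lpr set against MRL/mpj, the intervals of Vim, Cd44, Osmr and S1pr3 lie above 0, and those of Gfap, Aqp4 and Serpina3n include 0. By limma voom on all libraries of a comparison, 0 members were called, whereas limma-trend called 2 for MRL/lpr against MRL/mpj.

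Markers of other cells that express these genes moved with several members. Of the 6 markers of ependyma, the ciliated lining of the ventricles, 6 were higher without overlap in MRL/lpr mice, the median of their log2 fold changes was 2.27, and 6 of 6 had an unadjusted p under 0.05. By limma voom 0 of 6 were called, by limma-trend 4, and limma voom called 3, 1 and 2 without MRL/lpr replicates 1, 2 and 3. Their summed level was 17.7, 18.4 and 18.9 CPM in MRL/mpj mice, 170.4, 59.5 and 54.3 CPM in MRL/lpr mice and 28.4, 99.6 and 63.3 CPM in MRL/lpr+MSC mice. The most abundant of them was Foxj1, the transcription factor of motile cilia, with 6.19, 8.48 and 8.84 CPM in MRL/mpj mice against 58.9, 28.8 and 20.6 CPM in MRL/lpr mice, and none was at 0 in any library. S1pr3 had its 2 highest levels in the 2 libraries with the most ependyma RNA, MRL/lpr replicate 1 and MRL/lpr+MSC replicate 2. Vim was also highest in MRL/lpr replicate 1, but its next highest level (89.7 CPM) was in MRL/lpr replicate 2. That library had less ependyma RNA (59.5 CPM) than MRL/lpr+MSC replicate 2 (99.6 CPM), where Vim had 84.8 CPM. The part of ependyma in the levels of Vim and S1pr3 was not tested.

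Steap4 went with the choroid plexus, the epithelium that secretes cerebrospinal fluid. The 8 choroid plexus markers summed to 171, 524 and 711 CPM in MRL/mpj mice, to 1082, 9562 and 115 CPM in MRL/lpr mice and to 105, 4838 and 570.4 CPM in MRL/lpr+MSC mice. The 3 libraries with the highest sums, MRL/lpr replicate 2, MRL/lpr+MSC replicate 2 and MRL/lpr replicate 1, were also the 3 with the highest Steap4. Ttr, the thyroxine carrier of that epithelium, was the most abundant marker with 8755 CPM in MRL/lpr replicate 2 against 51.1 CPM in MRL/lpr replicate 3, and none of the 8 was at 0 in any library. Of the 8, all were positive in MRL/lpr mice (median 1.63 on the log2 scale). By limma voom 0 of 8 were called and by limma-trend 1, with 1 at an unadjusted p under 0.05, and limma voom called 2 without MRL/lpr replicate 2 and 1 without MRL/lpr replicate 3. The 10 fibroblast markers of meninges and vessels were highest in the same library as Steap4, with sums of 464, 347 and 233 CPM in MRL/mpj mice, 429, 881 and 279.5 CPM in MRL/lpr mice and 169, 595 and 259 CPM in MRL/lpr+MSC mice. Igf2 was their most abundant gene, none was at 0, and 10 of 10 were positive in MRL/lpr mice (median 0.48 on the log2 scale). By limma voom and by limma-trend 0 of 10 were called, and 0 had an unadjusted p under 0.05. Osmr and Timp1 were likewise highest in MRL/lpr replicate 2, the top library of both lists. The part of choroid plexus and fibroblasts in the levels of Steap4, Osmr and Timp1 was not tested.

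Leukocytes also express Cd44 and Lcn2, although the vessels had been rinsed with saline before the hippocampus was taken. Of the 10 markers, 8 were tested for MRL/lpr against MRL/mpj, of which 5 rose, among them Cd3g, Cd2 and Cd3e of T cells and Cd79a of B cells, by limma voom and Benjamini-Hochberg adjustment. Cd3g had 0 counts in all 3 controls against 84, 43 and 19 counts in MRL/lpr mice, at least 12.7-fold higher against a floor of 3 counts per library (limma voom, Benjamini-Hochberg adjusted p = 0.00898). Cd2 had 0 counts in MRL/mpj mice and was at least 7.54-fold higher. The median log2 fold change of the 8 was 3.67, or 3.04 with these genes at their bound. Cd3g and Cd2 passed the filter on low counts through the MRL/lpr libraries alone, so both medians lean toward markers that were high there. Of the list, 0 genes were called without MRL/mpj replicate 1, 2 or 3, 2 without MRL/lpr replicate 1 and 7 without MRL/lpr replicate 3. The list summed to 5.64, 2.19 and 2.01 CPM in MRL/mpj mice, to 17.8, 12.8 and 6.28 CPM in MRL/lpr mice and to 0.787, 17.1 and 3.99 CPM in MRL/lpr+MSC mice. Its most abundant gene by mean level was S100a9, and Ly6g, a marker of neutrophils, was at 0 in all 9 libraries. Cd44 was highest in MRL/lpr replicates 1 and 2, the libraries with the most T cell RNA, but its next highest level (4.57 CPM) was in MRL/lpr+MSC replicate 1, which had the lowest sum of the list (0.787 CPM). Lcn2, which neutrophils store in granules, was highest in MRL/lpr+MSC replicate 2 and then in MRL/mpj replicate 1. The neutrophil genes S100a8, at 6.46 and 1.90 CPM, and S100a9, at 8.50 and 2.70 CPM, were highest in these libraries too. Unlike the markers that rose, S100a8 and S100a9 had lower means in MRL/lpr mice (0.470 and 0.774 CPM) than in MRL/mpj mice (1.10 and 1.43 CPM), with overlapping groups, and the whole list was highest in MRL/lpr replicate 1 and not in the top library of Lcn2. The part of leukocytes in the levels of Cd44 and Lcn2 was not tested.

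**Figure D3:**
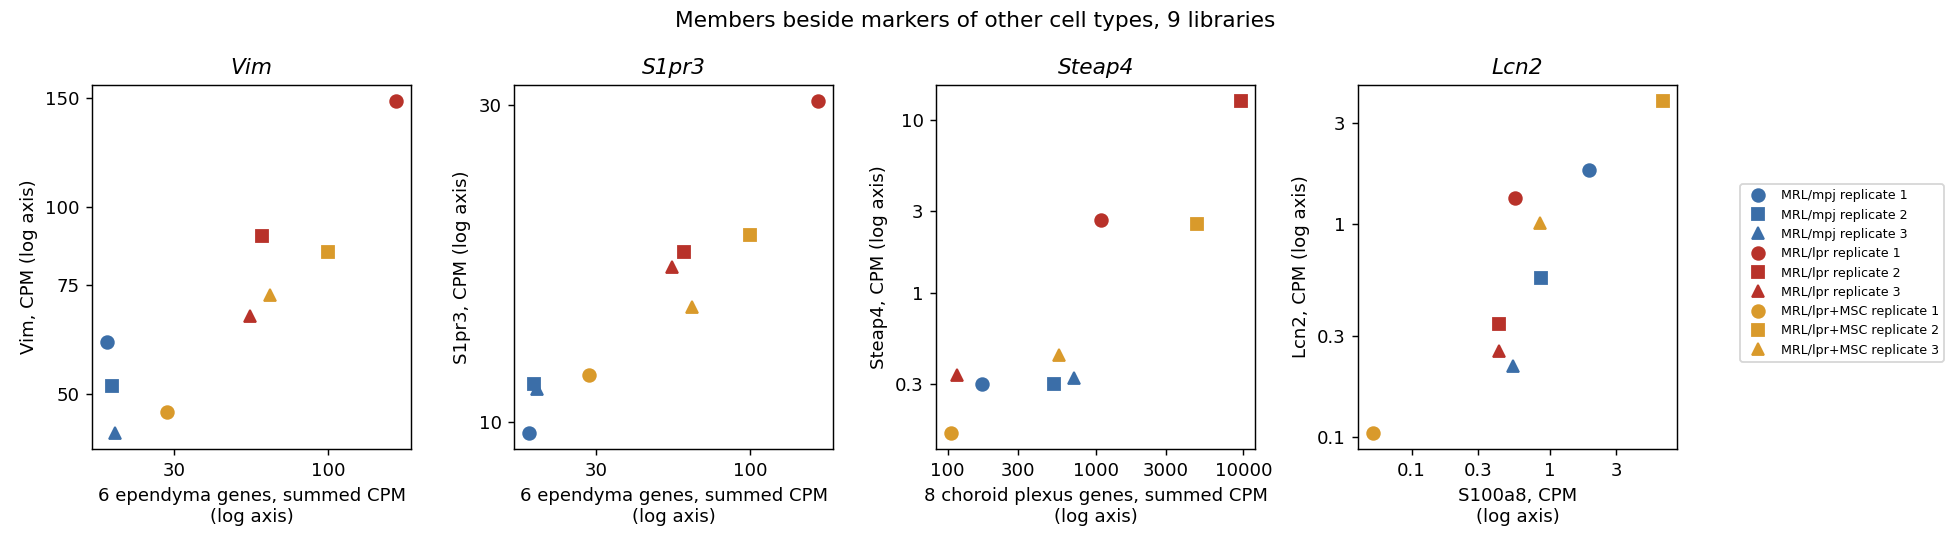
Level of Vim, S1pr3, Steap4 and Lcn2 in each of the 9 libraries (vertical axes, CPM, log scale) against the summed level of 6 ependyma genes, of 8 choroid plexus genes, or the level of S100a8 (horizontal axes, CPM, log scale), with colours for groups and shapes for replicates. S1pr3 and the ependyma genes are highest in MRL/lpr replicate 1, Steap4 and the choroid plexus genes in MRL/lpr replicate 2, and Lcn2 and S100a8 in MRL/lpr+MSC replicate 2. S100a8 was picked after its values were seen, and the whole leukocyte list, not drawn here, is highest in MRL/lpr replicate 1.

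The second comparison, MRL/lpr+MSC against MRL/mpj mice, asks how far the treated mice differ from the controls. It shares the MRL/mpj libraries with the first, so that a high or low control enters both. Cd44 and S1pr3 were higher in all 3 treated libraries than in any control, whereas Osmr, Vim and the abundant markers overlapped with the controls. By limma voom and Benjamini-Hochberg adjustment 0 of the 9 tested members were called, against 3.36% of all genes (544 of 16196), and limma-trend also called 0, against 601 of all genes. At an unadjusted p under 0.05 stood 2 of the 9, against 22.8% of all genes, and the 2 members higher without overlap stand against 15.8% of all genes, while 0 members were lower without overlap, against 13.6%. The median log2 fold change of the members was 0.11, against 0.00 over all genes, and 6 of the 9 were positive, against 50.6% of all genes. The 544 genes became 192, 200 and 198 without MRL/mpj replicates 1, 2 and 3 and 1518, 348 and 273 without MRL/lpr+MSC replicates 1, 2 and 3, and 2 members were called without MRL/lpr+MSC replicate 1.

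Cd44 had 4.57, 4.02 and 3.02 CPM in MRL/lpr+MSC mice, all above the highest control at 2.49 CPM. The log2 fold change of Cd44 was 0.83 (SE 0.26, 95% interval 0.23 to 1.43; limma voom, Benjamini-Hochberg adjusted p = 0.115). S1pr3 had 11.8, 19.1 and 14.9 CPM, of which the lowest was close to the highest control at 11.4 CPM. The log2 fold change of S1pr3 was 0.48 (SE 0.20, 95% interval 0.01 to 0.95; limma voom, Benjamini-Hochberg adjusted p = 0.211). Osmr had 6.82, 6.60 and 5.72 CPM, 2 libraries just above the controls and 1 among them, and a log2 fold change of 0.07 (95% interval -0.27 to 0.40). Vim had 46.6, 84.8 and 72.1 CPM, with replicate 1 inside the control range and the other 2 libraries above it. For Vim the log2 fold change was 0.35 (95% interval -0.22 to 0.92; limma voom, Benjamini-Hochberg adjusted p = 0.431). MRL/lpr+MSC replicate 1 also had the lowest ependyma sum of its group, 28.4 CPM, and without it Vim was called with a log2 fold change of 0.61 and S1pr3 with one of 0.65. Their adjusted p (limma voom, Benjamini-Hochberg) was then 0.0332 and 0.0303, in ranges of 0.0332 to 0.759 and 0.0303 to 0.451 over the 12 alternatives. The 6 ependyma markers were all positive in this comparison too, with a median of 1.67 on the log2 scale. By limma voom and limma-trend 0 of them were called, 4 had an unadjusted p under 0.05, and limma voom called 6 without MRL/lpr+MSC replicate 1. Their part in the levels of Vim and S1pr3 was not tested here either.

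Gfap had 468, 524 and 428 CPM in MRL/lpr+MSC mice, of which the first 2 lay inside the control range and the third below it. The difference was a log2 fold change of -0.20 (95% interval -0.53 to 0.13), negative in all 12 alternatives and with an adjusted p of 0.453 (limma voom, Benjamini-Hochberg). Aqp4 had 172, 196 and 193 CPM and Serpina3n 149, 88.9 and 89.1 CPM, with log2 fold changes of -0.08 and 0.11. That of Aqp4 was 0.06 when MRL/mpj replicate 1 was left out, and that of Serpina3n was -0.13 when MRL/lpr+MSC replicate 1 was left out. Serpina3n was thus high in the same treated library, replicate 1, in which Vim was low. Timp1 had 10, 8 and 12 counts, or 0.525, 0.369 and 0.532 CPM, and a log2 fold change of -0.36 (95% interval -1.20 to 0.47). Lcn2 had 2, 82 and 23 counts, or 0.105, 3.79 and 1.02 CPM, a spread wide relative to its level. Its interval, from -2.74 to 3.48 around a log2 fold change of 0.37, could not settle a direction, and the value was -0.26 when MRL/mpj replicate 3 was left out and -0.75 when MRL/lpr+MSC replicate 2 was. Steap4 had 3, 54 and 10 counts, or 0.157, 2.49 and 0.443 CPM, and failed the filter here too. Without the filter its log2 fold change was 0.88 (limma voom, Benjamini-Hochberg adjusted p = 0.713). Choroid plexus markers were positive in 8 of 8 cases (median 0.89 on the log2 scale) and fibroblast markers in 0 of 10 (median -0.47), with 0 called by limma voom or limma-trend and 0 and 1 at an unadjusted p under 0.05. Without MRL/lpr+MSC replicate 1, limma voom called 2 of the choroid plexus markers. Of the leukocyte markers 3 were tested, 0 were called by either tool and 0 had an unadjusted p under 0.05.

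The third comparison, MRL/lpr+MSC against MRL/lpr mice, asks what differs between treated and untreated mice of the same genotype. It shares a group with each of the others. Limma voom and Benjamini-Hochberg adjustment called 0 of the 10 members, all of which passed the filter, against 0% of all genes (0 of 16758), and limma-trend called 0 members and 0 genes. At an unadjusted p under 0.05 stood 1 member, Osmr, and 646 genes, or 3.85% of all genes. The fitted difference was negative for 8 of the 10 members, with a median log2 fold change of -0.46 against -0.01 over all genes, of which 47.4% were positive. Osmr and Timp1, the 2 members lower without overlap, stand against 5.46% of all genes, and the 0 members higher without overlap against 4.51%.

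Osmr was lower in each of the 3 treated libraries (6.82, 6.60 and 5.72 CPM) than in the lowest untreated library (7.30 CPM). Its log2 fold change was -0.41 (SE 0.16, 95% interval -0.81 to -0.02; limma voom, Benjamini-Hochberg adjusted p = 0.926). Timp1 was lower as well, at most 0.532 CPM in treated against at least 0.597 CPM in untreated mice, with a log2 fold change of -0.69 (95% interval -1.50 to 0.12). This difference rests on 8 to 12 counts against 17 to 23 counts. Vim, Cd44 and S1pr3, at log2 fold changes of -0.55 (95% interval -1.37 to 0.27), -0.53 (95% interval -1.38 to 0.31) and -0.51 (95% interval -1.20 to 0.18), had intervals that included 0, and their groups overlapped. Gfap at -0.24 (95% interval -0.71 to 0.22), Aqp4 at -0.20 (95% interval -0.54 to 0.14) and Serpina3n at 0.04 lay nearer to 0 on the log2 scale. The intervals of Lcn2, from -2.50 to 3.80, and of Steap4, from -6.11 to 2.27, were too wide to show a direction. Only 2 members changed sign when a library was left out. Lcn2 went from 0.65 to -0.48 on omission of MRL/lpr+MSC replicate 2, and Serpina3n went to -0.18 on omission of MRL/lpr replicate 3 and to -0.21 on omission of MRL/lpr+MSC replicate 1. The summed level of ependyma markers overlapped between the groups, and 0 of 6 were positive with a median log2 fold change of -0.62. Choroid plexus markers had a median of -0.58 with 0 of 8 positive, and fibroblast markers one of -0.85 with 0 of 10 positive. Of these 3 lists 0 genes were called by limma voom or limma-trend, with 0, 0 and 3 at an unadjusted p under 0.05, and their part in the differences of Vim, S1pr3 and Steap4 was not tested. Of 8 tested leukocyte markers 6 were lower without overlap and had an unadjusted p under 0.05, the median was -2.39 on the log2 scale, and 0 were called by limma voom or limma-trend. Cd3g, Cd2 and Cd3e passed the filter here but not in the second comparison, so this median leans toward markers high in MRL/lpr mice.

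Members differed in how they varied across the 9 libraries. Over the 45 pairs of members, Pearson's r of log2 CPM ran from -0.44, for Serpina3n and Lcn2, to 0.91, for Vim and S1pr3, with a median of 0.38. These values describe 9 libraries that fall into 3 groups and carry no test. Cd44 went with Osmr (r = 0.83), S1pr3 (r = 0.80) and Vim (r = 0.79), Steap4 with Osmr (r = 0.77), and Gfap went with Aqp4 (r = 0.70). Vim also went with Steap4 (r = 0.75) and Aqp4 (r = 0.73). Among the 17113 genes that passed the filter over 9 libraries, the genes nearest to Vim were Cnn3 (r = 0.993), Ccdc34 (r = 0.987) and S100a6 (r = 0.986). The genes nearest to S1pr3 were Pkn2 (r = 0.986), Dcdc2b (r = 0.985) and Tcf7 (r = 0.981). For Cd44 they were Trim21 (r = 0.969), Arhgap27os3 (r = 0.963) and Casp12 (r = 0.958), and for Osmr they were Itgae (r = 0.964), AB041806 (r = 0.963) and Lman1 (r = 0.945). Steap4 had as its nearest genes Sgms2 (r = 0.988), Hspg2 (r = 0.986) and Col8a1 (r = 0.984), of which Hspg2 and Col8a1 encode components of basement membranes. Gfap had no neighbour as close, with Alg3 (r = 0.903), Nav2 (r = 0.895) and Usp42 (r = 0.882), nor had Aqp4, with Gm10863 (r = 0.928), Zfp263 (r = 0.914) and Mfng (r = 0.912). The nearest genes were Mmp17 (r = 0.968), Slc44a5 (r = 0.958) and Frzb (r = 0.951) for Serpina3n, Ubxn1 (r = 0.947), Zfp934 (r = 0.944) and Tbccd1 (r = 0.934) for Lcn2, and Nsrp1 (r = 0.933), Lrtm2 (r = 0.926) and Plrg1 (r = 0.922) for Timp1. As the highest of 17113 genes over 9 libraries, the r of all nearest genes are raised by selection and carry no test either.

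The pathways around the members were read from further lists. For the signalling route of oncostatin M, gp130 and STAT3, to which Osmr belongs, 10 of 14 genes were tested for MRL/lpr against MRL/mpj, and 6 were positive (median 0.09 on the log2 scale). By limma voom and by limma-trend 0 of these 10 were called, 4 had an unadjusted p under 0.05, and limma voom called 1 without MRL/lpr replicate 3. For MRL/lpr+MSC against MRL/mpj 0 of 10 were called by either tool, with 3 at an unadjusted p under 0.05 and a median of 0.08. For MRL/lpr+MSC against MRL/lpr the median was 0.00 on the log2 scale, 0 were called by either tool and 0 had an unadjusted p under 0.05. The kinase Jak1 was the most abundant gene of this route. The partners of the members, which are sphingosine 1-phosphate enzymes and receptors, hyaluronan synthases, metalloproteinases, the anchors of Aqp4 and the receptors of lipocalin-2, held 14 tested genes of 16 in each comparison. By limma voom 1 of them rose in each comparison with MRL/mpj mice, Mmp14, a membrane-bound metalloproteinase, with medians of 0.12 and 0.05 over the list. Limma-trend called 2 and 1 of them, 5 and 3 had an unadjusted p under 0.05, 4 and 2 were higher and 2 and 0 lower without overlap, and Slc22a17, a lipocalin-2 receptor, was the most abundant. Mmp14 had 18.8, 16.5 and 15.6 CPM in MRL/mpj mice, 35.0, 34.8 and 33.4 CPM in MRL/lpr mice and 26.1, 37.3 and 33.5 CPM in MRL/lpr+MSC mice. Every library with the lpr allele exceeded every MRL/mpj library. The log2 fold change of Mmp14 was 1.03 (SE 0.09) for MRL/lpr against MRL/mpj (limma voom, Benjamini-Hochberg adjusted p = 0.00291) and 0.91 (SE 0.16) for MRL/lpr+MSC against MRL/mpj (limma voom, Benjamini-Hochberg adjusted p = 0.0279). The call stood in 12 of 12 alternatives in the first of these, and in the second it was lost without any one MRL/mpj library and without MRL/lpr+MSC replicates 2 or 3, with an adjusted p of up to 0.117 (limma voom, Benjamini-Hochberg).

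Among astrocyte identity genes 1 of 16 rose in each comparison with MRL/mpj mice, Sox9, a transcription factor of astrocytes and ependyma. It had 19.0, 25.5 and 19.4 CPM in MRL/mpj mice, 63.1, 42.9 and 52.7 CPM in MRL/lpr mice and 48.6, 44.0 and 43.7 CPM in MRL/lpr+MSC mice. For Sox9 the log2 fold change was 1.31 (SE 0.18; limma voom, Benjamini-Hochberg adjusted p = 0.0135) in MRL/lpr mice and 1.08 (SE 0.12; limma voom, Benjamini-Hochberg adjusted p = 0.00584) in MRL/lpr+MSC mice. The first call was lost without MRL/mpj replicates 1 or 3, at an adjusted p of up to 0.0744 (limma voom, Benjamini-Hochberg), and the second stood in 12 of 12 alternatives. The other 15 identity genes were not called by limma voom or limma-trend in either comparison. The median log2 fold change of the 16 was 0.09 and 0.12. An unadjusted p under 0.05 was reached by 1 and 5 of the 16. Without overlap, 1 and 5 were higher and 0 and 1 lower. Sox9 was highest in MRL/lpr replicate 1, as the ependyma markers were. Within MRL/lpr+MSC mice it was highest in replicate 1 (48.6 CPM), where the ependyma sum was lowest (28.4 CPM), and their part in its rise was not tested.

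Other genes of the reactive state were read from 3 lists. Of 8 further genes shared by many reactive states, among which the filament gene Synm was the most abundant, 0 of 7 tested were called by limma voom for MRL/lpr against MRL/mpj (median 0.18 on the log2 scale). Limma-trend called 1 of them, 2 had an unadjusted p under 0.05, and limma voom called 3 without MRL/lpr replicate 3. For MRL/lpr+MSC against MRL/mpj 0 of 6 were called by limma voom or limma-trend, with 1 at an unadjusted p under 0.05 and a median of 0.06, and limma voom called 1 without MRL/lpr+MSC replicate 1. Of the 12 A1 genes, a set first described after inflammation, 1 rose in MRL/lpr mice by limma voom, limma-trend called 5, 9 had an unadjusted p under 0.05 and 6 were higher and 2 lower without overlap, with a median of 1.01 over the 12. The A1 list summed highest in MRL/lpr replicates 1 (475 CPM) and 2 (311 CPM), also the 2 highest libraries of the interferon response genes described below. The part of that response in the A1 list was not tested. In MRL/lpr+MSC mice 1 rose and 1 fell, limma-trend called 2 and 5 had an unadjusted p under 0.05, with a median of 0.37. The gene that rose in both was H2-T23, an MHC gene with near-identical copies elsewhere in its cluster, so that its counts are uncertain. Its call in MRL/lpr mice was lost without any one MRL/mpj library and with no filter on low counts. In MRL/lpr+MSC mice it was lost without MRL/mpj replicates 1 or 3, without MRL/lpr+MSC replicates 2 or 3 and in a joint fit of the 9 libraries, with adjusted p (limma voom, Benjamini-Hochberg) of up to 0.167 and 0.158 over the 12 alternatives. The gene that fell was Fkbp5, a cochaperone of the glucocorticoid receptor and the most abundant of the list, with 102, 108 and 92.3 CPM in MRL/mpj mice and 72.6, 58.1 and 57.9 CPM in MRL/lpr+MSC mice. Fkbp5 had a log2 fold change of -0.70 (SE 0.11; limma voom, Benjamini-Hochberg adjusted p = 0.0156) and the call was lost in 4 of 12 alternatives, namely without either of MRL/mpj replicates 1 and 2 or either of MRL/lpr+MSC replicates 2 and 3, with an adjusted p (limma voom, Benjamini-Hochberg) of up to 0.0879. Fkbp5 was lower without overlap in MRL/lpr mice too, at 59.4, 81.1 and 62.9 CPM, where its log2 fold change of -0.57 was below 1.5-fold (limma voom, Benjamini-Hochberg adjusted p = 0.0438). It was called there with median-of-ratios size factors (-0.60), with library quality weights (-0.64) and without MRL/lpr replicate 2 (-0.72). Of the 12 A2 genes, a set first described after ischemia, 11 were tested and 1 rose in each comparison with MRL/mpj mice, S100a10, a ligand of annexin A2, with medians of 0.21 and 0.07 over the list. In each of the 2 comparisons limma-trend called 1 A2 gene and 2 had an unadjusted p under 0.05. S100a10 had 6.04, 6.08 and 6.56 CPM in MRL/mpj mice, 15.6, 11.4 and 14.4 CPM in MRL/lpr mice and 11.8, 10.5 and 12.2 CPM in MRL/lpr+MSC mice. The log2 fold changes of S100a10 were 1.16 (SE 0.17; limma voom, Benjamini-Hochberg adjusted p = 0.0141) and 0.88 (SE 0.12; limma voom, Benjamini-Hochberg adjusted p = 0.0115). Both calls were lost without any one of the 3 MRL/mpj libraries, with an adjusted p of up to 0.0771 and 0.0759 (limma voom, Benjamini-Hochberg). Ptgs2, the inducible cyclooxygenase, was the most abundant A2 gene. For MRL/lpr+MSC against MRL/lpr 0 genes of these 3 lists were called by limma voom or limma-trend, with 3, 7 and 2 at an unadjusted p under 0.05 and medians of -0.01, -1.42 and -0.35.

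Interferon response genes were highest in MRL/lpr replicates 1 and 2, which were also the 2 highest libraries of Cd44, Vim, Steap4 and Osmr. Of 10 such genes, 10 were positive for MRL/lpr against MRL/mpj (median 1.71 on the log2 scale) and 3 rose, Ifit1, Isg15 and Usp18, while limma-trend called 6 and 9 had an unadjusted p under 0.05. Their summed level was 25.4, 23.1 and 24.0 CPM in MRL/mpj mice, 97.5, 76.8 and 38.7 CPM in MRL/lpr mice and 29.6, 39.2 and 39.9 CPM in MRL/lpr+MSC mice. Of the same 10 genes, 2 rose in MRL/lpr+MSC mice, Ifit1 and Irf7, with a median of 0.96, 2 called by limma-trend and 6 at an unadjusted p under 0.05. In MRL/lpr+MSC mice both calls were lost in a joint fit of the 9 libraries, and that of Irf7 also with no filter on low counts. For MRL/lpr+MSC against MRL/lpr 0 of 10 were positive (median -0.75 on the log2 scale), 3 were lower without overlap, 2 had an unadjusted p under 0.05 and 0 were called by limma voom or limma-trend. Of these genes 0 were called without MRL/mpj replicate 1, 2 or 3 in either comparison, 0 without MRL/lpr replicate 1, 2 without MRL/lpr replicate 2 and 9 without MRL/lpr replicate 3, and in MRL/lpr+MSC mice 4 without MRL/lpr+MSC replicate 1 and 0 without replicates 2 or 3. The part of this response in the levels of Cd44, Vim, Steap4 and Osmr was not tested.

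The remaining lists hold markers of vessels, glia and neurons. Of 8 endothelial genes 1 rose in each comparison with MRL/mpj mice, the tight junction gene Cldn5, with 34.6, 34.5 and 30.8 CPM in MRL/mpj mice, 56.1, 50.2 and 59.8 CPM in MRL/lpr mice and 72.7, 59.2 and 53.3 CPM in MRL/lpr+MSC mice. The log2 fold change of Cldn5 was 0.74 in MRL/lpr mice and 0.87 in MRL/lpr+MSC mice, and the call was lost without MRL/mpj replicate 3 in the first and without any one MRL/mpj library in the second, at an adjusted p (limma voom, Benjamini-Hochberg) of up to 0.0557 and 0.0677. By limma voom and by limma-trend, 0 of 7 mural cell genes, 0 of 8 microglia genes, 0 of 7 oligodendrocyte genes and 0 of 8 neuron genes were called in any comparison. At an unadjusted p under 0.05 stood 4, 2, 1 and 5 of them for MRL/lpr against MRL/mpj and 4, 4, 4 and 1 for MRL/lpr+MSC against MRL/mpj. For MRL/lpr against MRL/mpj, limma voom called 1 microglia and 3 oligodendrocyte genes without MRL/lpr replicate 1, 1 mural cell and 3 neuron genes without MRL/lpr replicate 2, and 1 neuron gene without MRL/lpr replicate 3. For MRL/lpr+MSC against MRL/mpj it called 1 microglia, 1 oligodendrocyte and 2 neuron genes without MRL/lpr+MSC replicate 1, and 1 oligodendrocyte gene without MRL/lpr+MSC replicate 2. Their medians for MRL/lpr against MRL/mpj were -0.12, -0.07, -0.25 and -0.43, and for MRL/lpr+MSC against MRL/mpj -0.06, -0.23, -0.45 and -0.27. The most abundant genes of the endothelial, mural, microglial, oligodendrocyte and neuron lists were Flt1, Rgs5, Csf1r, Mbp and Snap25. Neuron genes summed to 6156, 5765 and 6871 CPM in MRL/mpj mice, to 4268, 5109 and 4311 CPM in MRL/lpr mice and to 7072, 4505 and 4643 CPM in MRL/lpr+MSC mice, and none was at 0. The 4 libraries with the highest neuron sums had the 4 lowest levels of Vim, and the part of the neuron share in the level of Vim was not tested.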

How the data were processed

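The authors deposited raw counts per gene for the 9 hippocampal libraries and FPKM values per library, made from these counts and gene lengths. The study names STAR and HTSeq on mm10, the labels name TopHat2 and GRCm38, and the strand setting is not stated. Of the columns with values, 0 had no sample. The FPKM values served only to order levels between genes, and each table matched its own library over 13655 genes. GENCODE symbols of GRCm38 were found for 47224 of 47643 genes.

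A separate fit was made for each comparison from its own 6 libraries. Scaling was by TMM, with trims of 30% of ratios and 5% of levels. A gene was tested if it had a total of 15 counts or more and reached, in as many libraries as the smaller group holds, the CPM that 10 counts give at median library size. Testing used limma voom with robust moderation (limma 3.58.1, with statmod 1.5.0, under R 4.3.3), and p-values were adjusted by Benjamini-Hochberg across all genes in the fit. Calls combine an adjusted p below 0.05 with a change of 1.5-fold or more. A quasi-likelihood test had been planned and was not run: owing to the separator between its columns, the matrix could not be registered as counts, and limma voom replaced it as foreseen. The test was tried on simulated data.

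Members and lists were chosen with earlier results of these data known. Named genes are the 10 members, Fas, genes called in any of 16 other lists (at most 4 per list and comparison, with the smallest p), the most abundant gene of each list by mean CPM, and the 3 genes nearest to each member. S100a8, S100a9 beside it, Ly6g and Cd79a were named after their values were seen. Of the genes this rule would name, 2 are not reported here. All 160 genes of these lists were matched. Tables and figures used Python 3.11.15, pandas 2.3.3, numpy 2.4.6 and matplotlib 3.10.9.

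Depth was 19475804 to 26912031 counts per library, and 3 counts correspond to 0.105 to 0.163 CPM after normalisation. Alternatives were median-of-ratios size factors, no filter on low counts, a joint fit of the 9 libraries, a block for the replicate number, and the omission of each library. limma-trend and library quality weights were added after the data were seen.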

Additional observations from a re-analysis of the deposited data

How the results depend on the processing

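In MRL/lpr against MRL/mpj mice, 959 genes were called. The count was 1141 with the replicate number as a block and 1338 with limma-trend. With library quality weights, added after the data were seen, it was 2064, and with each library left out in turn it ran from 162 to 1692. The number of members called was 0. It was 2 with the replicate number as a block, Vim and Cd44, and 2 with limma-trend, also added after the data were seen. With library quality weights it was 3, and with a library left out it was 0 to 3. In MRL/lpr+MSC against MRL/mpj mice, 544 genes were called, 601 with limma-trend and 1181 with library quality weights. With a library left out, 192 to 1518 genes and 0 to 2 members were called. With the replicate block 288 genes were called, and the calls of Mmp14, H2-T23, S100a10, Ifit1 and Irf7 in this comparison were lost. Fewer libraries were fitted when a library was left out, and the counts then went both up and down. The cause of these shifts was not tested. In MRL/lpr+MSC against MRL/lpr mice, 0 genes and 0 members were called by limma voom in every setting run. No source says that replicate numbers link mice, and deviations from the group mean correlated by -0.02, 0.20 and 0.09 between libraries of the same number in the first comparison, by -0.03, 0.13 and 0.36 in the second and by -0.21, 0.23 and 0.33 in the third. In all 3 comparisons replicates 2 and 3 correlated best with their own number and replicate 1 did not, so the block has no stated basis and only a partial hint from the data. Of the members' log2 fold changes under the alternatives, 89, 101 and 116 kept their direction and their side of the threshold in the 3 comparisons, 11, 2 and 0 became calls, and 8, 5 and 4 changed sign without a call on either side. For the 16 other lists under each alternative and comparison, the number of called genes stayed within 1.5-fold in 474 cases, was higher in 58 and was lower in 44. The Wald test of DESeq2, planned as an alternative, was not run, because the values could not be registered as counts.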
